A study of Sus scrofa with 12 samples.

Results

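Vascular endothelial growth factor (VEGF) ligands, their receptor tyrosine kinases and the neuropilins were examined as a group of 9 named genes, KDR, FLT1, FLT4, NRP1, NRP2, VEGFA, VEGFB, VEGFC and PGF, out of 19681 genes in the series. They were looked up by their Ensembl pig gene symbols. Of the 9, 7 were found and 2, VEGFB and PGF, had no matching identifier in the tables and are not analysed here.

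RNA sequencing values of 12 libraries were used, 3 biological replicates (A, B and C) in each of 4 groups. IEC2, IEC4 and IEC12 are porcine induced pluripotent stem (iPS) cells, unsorted, after 2, 4 and 12 days of endothelial induction, and AOC is a porcine endothelial cell line. All IEC cultures received CHIR99021, an inhibitor of the kinase GSK3β, for the first 2 days. The IEC4 cultures then had BMP4, FGF2 and VEGF added to the medium for 2 days, and the IEC12 cultures went on from there into the endothelial medium EGM-2 with added VEGF. IEC2 was therefore collected before recombinant VEGF was given, and added protein does not count as VEGFA transcript. The iPS cells themselves and the day 12 cells sorted for CD31 are not analysed here.

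Secreted VEGF ligands bind as dimers to 3 receptor tyrosine kinases on the cell surface. The protein of KDR (VEGFR-2) carries most of the signal for endothelial growth and migration, that of FLT1 (VEGFR-1) binds VEGFA tightly and largely acts as a sink for it, and that of FLT4 (VEGFR-3) serves the lymphatic ligands VEGFC and VEGFD. The neuropilins NRP1 and NRP2 have no kinase of their own. They act as co-receptors for VEGF ligands and also bind class 3 semaphorins together with plexins. KDR also marks the mesodermal precursors from which blood and endothelial cells arise, so it is often followed when pluripotent cells are guided towards endothelium.

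On the Sscrofa11.1 assembly of RefSeq, KDR (ENSSSCG00000008844) lies at chr8:41809116-41856379, FLT1 (ENSSSCG00000009320) at chr11:5620698-5797095 and FLT4 (ENSSSCG00000014007) at chr2:78076008-78115137. NRP1 (ENSSSCG00000011102) lies at chr10:56280673-56430832 and NRP2 (ENSSSCG00000026383) at chr15:108974246-109092316. VEGFA (ENSSSCG00000001695) lies at chr7:38746393-38762282 and VEGFC (ENSSSCG00000015770) at chr15:39037764-39136234, the same chromosome as NRP2.

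The values are FPKM, fragment counts divided by transcript length and by the total of the library, so levels of different genes can be set side by side. How many reads each library had is unknown. A library held 8357 to 10467 genes at an FPKM of at least 1, and the median of those genes was 7.59 to 8.51, above every value of every VEGF gene found, the highest of which was 6.88. None of the 8 housekeeping genes found was listed at 0 in any library. The labelled identity was checked against 15 endothelial marker genes, of which 12 were found. Their summed FPKM was 512 to 628 in AOC. In IEC12 the sum was 0.675 to 2.60, and IEC2 and IEC4 reached 3.08 to 5.29 and 4.32 to 5.61. CDH5, the VE-cadherin gene, was listed at 0 in all 9 IEC libraries against 103 to 137 FPKM in AOC. PECAM1, the CD31 gene, was at 0.0198 to 0.106 FPKM in IEC12 against 91.7 to 131 in AOC. CDH5 and PECAM1 are at or near 0 in the bulk IEC12 cultures labelled as induced endothelial cells. These cultures are therefore called IEC12 by their day only. ENG, of the same list, went the other way in IEC2 and IEC4. It was at 1.58 to 3.58 FPKM in IEC2 and 2.46 to 3.83 in IEC4, against 0.361 to 1.23 in AOC. In IEC12, 11 of the 12 markers were under 1 FPKM in all 3 libraries. ENG was at 0.278, 0.653 and 2.02 there, most of the sum of 2.60 in replicate C.

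**Figure D1:**
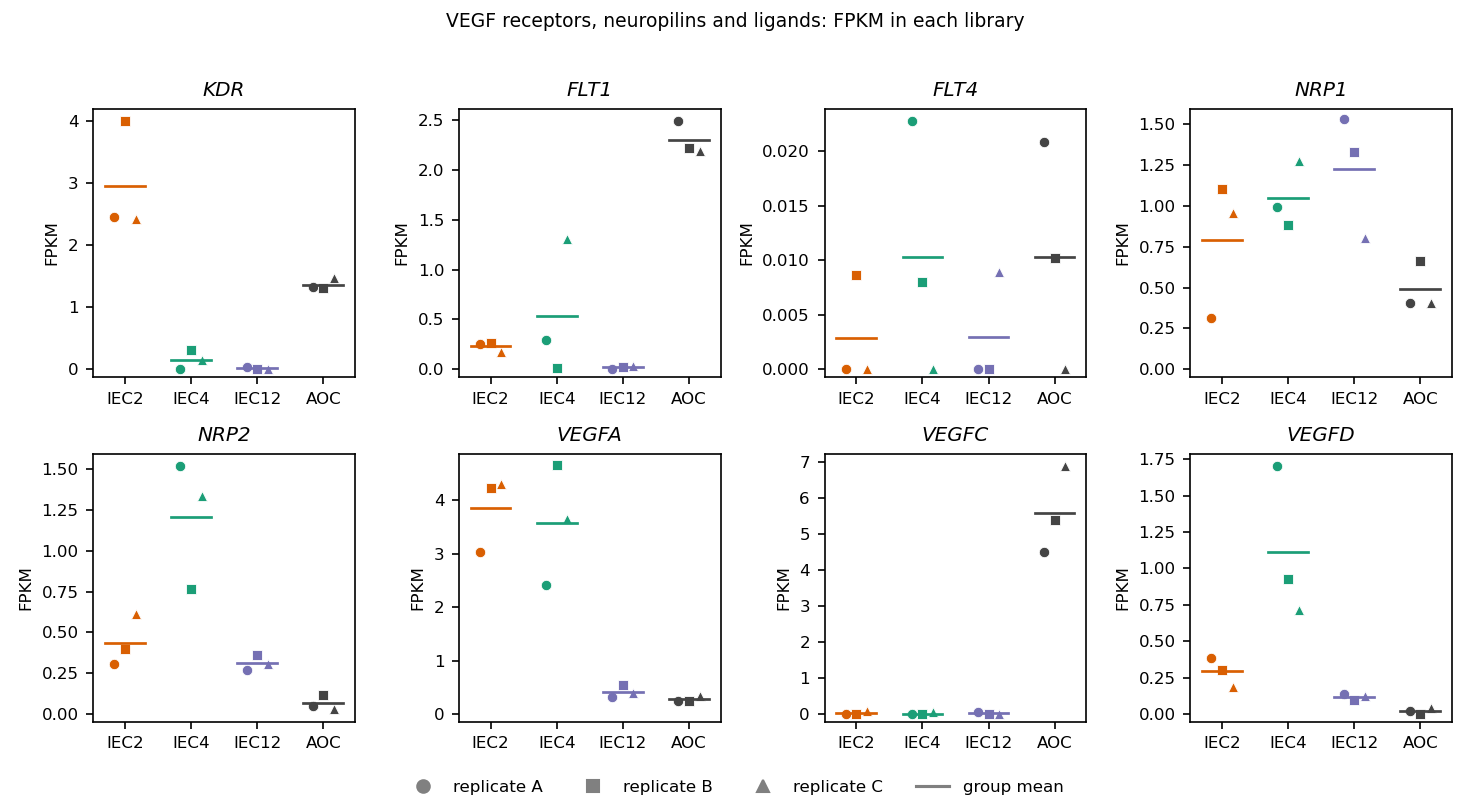
FPKM (linear axis from 0, scaled separately for each gene) of the 7 VEGF genes found and of the additional ligand VEGFD in the 12 libraries. Each symbol is 1 library and each bar a group mean of 3. KDR reached 2.42 to 3.99 in IEC2, VEGFA 2.41 to 4.65 in IEC2 and IEC4, and VEGFC 4.49 to 6.88 in AOC alone.

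KDR, the main signalling receptor, was highest at day 2. The IEC2 libraries A, B and C had 2.45, 3.99 and 2.42 FPKM (mean 2.95 ± 0.898, SD, n = 3). In IEC4 the values were 0, 0.302 and 0.154, and in IEC12 they were 0.0374, 0 and 0. AOC stood between, at 1.32, 1.31 and 1.46 (mean 1.36 ± 0.0848). All 3 IEC2 libraries lay above all 3 of AOC, which lay above all of IEC4 and IEC12, and only IEC4 and IEC12 overlapped. In bulk cultures, fewer cells carrying a transcript and less of it per cell cannot be told apart.

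Differences were tested with limma on log2(FPKM + 1), which shrinks the differences of genes with low levels, with Benjamini-Hochberg adjustment over all genes tested. KDR passed the filter of 1 FPKM in 3 libraries through IEC2 in the 9-library fit, and through IEC2 and AOC in the 12-library fit. Its tests are therefore given from the fits with no filter. There it fell by 1.76 from IEC2 to IEC4 on the log2(FPKM + 1) scale (SE 0.17, limma adjusted p = 0.000401), and it was called in all 6 fits that left out 1 library. IEC12 differed from IEC2 by -1.94 (limma adjusted p = 0.000201). Between IEC12 and IEC4 the difference of -0.18 was not called (95% interval -0.57 to 0.22, limma adjusted p = 0.484). AOC was lower than IEC2 by 0.72 in the 12-library fit (difference -0.72, SE 0.16, limma adjusted p = 0.00373), a ratio of mean levels of 2.17. With the filter in place, that call (limma adjusted p = 0.00235) was lost with a pseudocount of 0.1 (difference -1.02, limma adjusted p = 0.0686). With no filter AOC exceeded IEC4 by 1.04 and IEC12 by 1.22 (limma adjusted p = 0.000322 and 0.000135).

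The cultures differed in other cell type markers at the same time. The summed level of the 5 fibroblast markers was 84.9 to 115 FPKM in IEC2 and 47.0 to 57.4 in IEC4, most of it COL3A1, a collagen gene (means 93.6 and 45.6). PDGFRA, a growth factor receptor gene also expressed in early mesoderm, was at 3.62 to 5.13 in IEC2 and 0.217 to 0.801 in IEC4, while the collagen gene COL1A1 of the same list went the other way, from a mean of 0.341 to 5.59. The 7 mural markers summed to 0.190 to 0.461 FPKM in IEC2 and 10.7 to 29.9 in IEC4, and the 5 amnion and trophoblast markers to 2.93 to 3.08 and 25.9 to 77.1. Of the early mesoderm genes, TBXT was not found, and MIXL1 and EOMES were listed at 0 in every library. MESP1 of the same list was above 0 in every library. It was at 0.0271 to 0.0447 FPKM in IEC2, 0.0239 to 0.376 in IEC4, 0.211 to 0.508 in IEC12 and 0.328 to 0.481 in AOC. The 4 epithelial markers summed to 317 to 822 FPKM in IEC4, against 13.3 to 21.2 before (IEC2) and 4.68 to 16.1 after (IEC12). Their part in the change of KDR was not tested.

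FLT1, which encodes the receptor that binds VEGFA most tightly, was highest in AOC. The AOC libraries A, B and C had 2.49, 2.22 and 2.19 FPKM (mean 2.30 ± 0.164, SD, n = 3), each above every IEC library. IEC2 had 0.253, 0.265 and 0.174, and IEC12 had 0, 0.023 and 0.0306. IEC4 was spread from 0.00917 in replicate B through 0.298 in A to 1.3 in C, a range that covered all of IEC2. The mean of AOC was 9.96 times that of IEC2. FLT1 reached the filter of the 12-library fit through AOC and IEC4 replicate C, and with no filter AOC was higher than IEC2 by 1.42 (SE 0.23), than IEC4 by 1.19 and than IEC12 by 1.70 (limma adjusted p = 0.000651, 0.00193 and 0.000234).

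Among the IEC groups FLT1 was not called with no filter, at differences of 0.23 for IEC4 against IEC2, -0.51 for IEC12 against IEC4 and -0.27 for IEC12 against IEC2 (limma adjusted p = 0.567, 0.189 and 0.509). The first of these changed sign to -0.10 without IEC4 replicate C. The value of IEC12 against IEC4 turned on single libraries, at -0.17 without IEC4 replicate C and -0.76 without IEC4 replicate B, the latter called (limma adjusted p = 0.0459). IEC4 replicate C was the highest of its group in some markers of other cell types and not in others. Its epithelial markers summed to 822 FPKM against 317 in A and 462 in B, its 5 amnion and trophoblast markers to 77.1 against 25.9 and 26.8, and PDPN, a surface glycoprotein gene, was at 34.9 against 7.34 and 5.70. The mural sum was highest in A, at 29.9 against 10.7 in B and 10.9 in C, and the blood cell sum was lowest in C, at 5.64 against 6.81 in A and 7.02 in B. Their part in the FLT1 value of this library was not tested.

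FLT4 was near 0 throughout. It was listed at 0 in 6 of the 12 libraries, and its highest value was 0.0227 FPKM, in IEC4 replicate A. Adjusted for relative depth, its 6 values above 0 equalled 1, 2 or 3 times the smallest of them, so they rest on very few fragments. No difference in FLT4 was detectable at this depth in any of the 6 comparisons. Of the 3 lymphatic markers, LYVE1 was listed at 0 in all IEC2 and all IEC12 libraries and was at most 0.0583 FPKM in the others. PROX1, the lymphatic transcription factor gene, was at 0.186 to 0.646 in the IEC libraries and 0.0182 to 0.0827 in AOC, so it was above FLT4. PDPN, which is also made by other cell types, was at 5.70 to 34.9 in IEC4 and brought the sum of the 3 there to 6.28 to 35.6, against 0.0752 to 0.0926 in AOC.

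The balance of the receptors differed between the groups that carried them. The 3 receptor genes summed to similar levels in AOC and IEC2, 3.54 to 3.83 and 2.59 to 4.26 FPKM. KDR was 90.6 to 93.6% of that sum in the IEC2 libraries and 34.5 to 40.0% in the AOC libraries. The ratio of FLT1 to KDR was 0.0664 to 0.103 in IEC2 and 1.5 to 1.89 in AOC, and the groups did not overlap in either measure. In IEC4 the sum was 0.319 to 1.46 and was made mostly of FLT1 in replicates A and C and of KDR in B. In IEC12 it was 0.023 to 0.0395, below every other library.

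**Figure D2:**
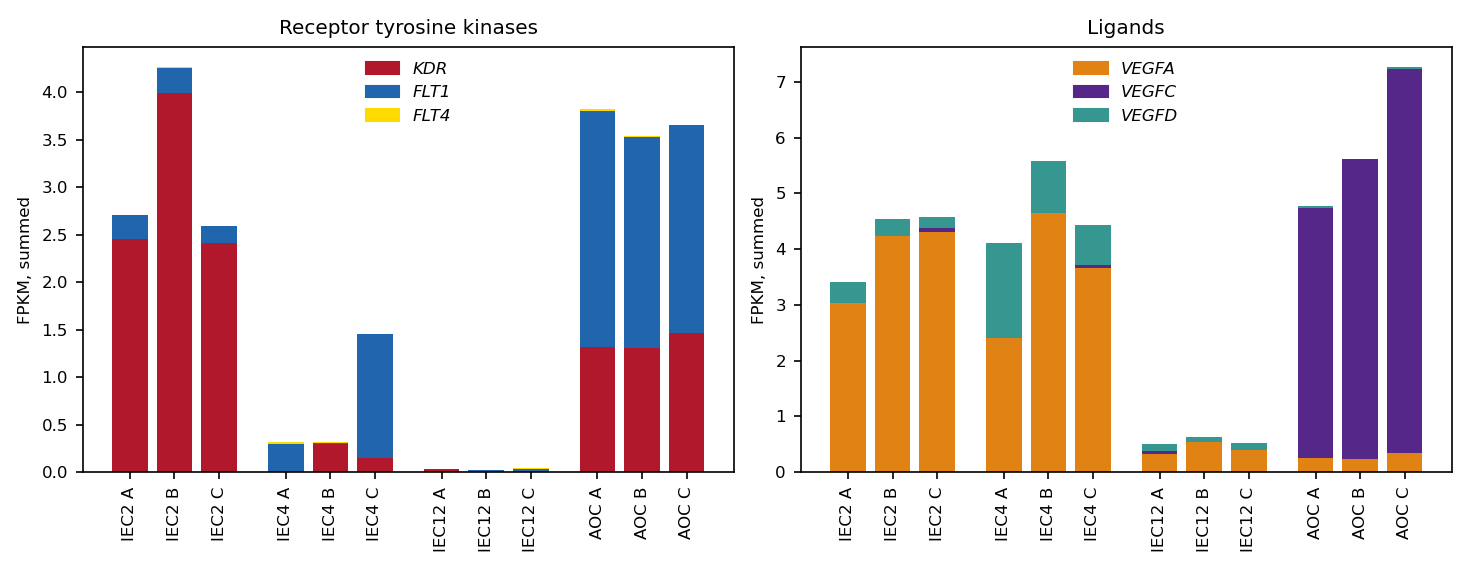
Stacked FPKM of the receptor tyrosine kinase genes (left) and of the ligand genes (right), 1 bar per library, on linear axes from 0. KDR fills 90.6 to 93.6% of the receptor bars of IEC2 and FLT1 most of those of AOC, while VEGFA fills 88.6 to 94.2% of the ligand bars of IEC2 and VEGFC most of those of AOC.

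NRP1, the co-receptor that joins VEGFA and KDR, was detected in all 12 libraries. The IEC12 libraries had 1.54, 1.33 and 0.805 FPKM (mean 1.22 ± 0.377, SD, n = 3), and IEC4 had 0.993, 0.884 and 1.28. IEC2 had 0.317, 1.11 and 0.956, and AOC had 0.406, 0.662 and 0.404. Every pair of neighbours in the order IEC12, IEC4, IEC2, AOC overlapped, while AOC lay below all libraries of IEC4 and of IEC12. In IEC12, with both KDR and FLT1 at or below 0.0374 FPKM, NRP1 stayed between 0.805 and 1.54.

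No difference in NRP1 among the IEC groups was called, with 0.22 for IEC4 against IEC2 (95% interval -0.28 to 0.72), 0.11 for IEC12 against IEC4 (-0.39 to 0.61) and 0.33 for IEC12 against IEC2 (-0.17 to 0.83). AOC was lower than IEC12, at a difference of -0.57 (SE 0.20, limma adjusted p = 0.0273) and a ratio of mean levels of 2.5. That call was lost after median-of-ratios scaling (difference -0.47, limma adjusted p = 0.0537) and without AOC replicate A or C or IEC12 replicate A or B, where the limma adjusted p was 0.0882, 0.0873, 0.0891 and 0.0806. NRP1 passed the filter through 4 libraries, all of them IEC. With no filter the limma adjusted p of AOC against IEC12 was 0.0441, and 1 of 6 fits with 1 library left out was called. Against IEC4 the difference of -0.46 missed the threshold (limma adjusted p = 0.0555) and passed it when the libraries were scaled to equal totals (-0.56, limma adjusted p = 0.0235). Against IEC2 it was -0.24 (limma adjusted p = 0.304), and passed without IEC2 replicate A (-0.45, limma adjusted p = 0.0465), though not there with no filter (limma adjusted p = 0.0623).

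NRP2, the neuropilin linked more to VEGFC and to lymphatic and venous cells, was highest at day 4. The IEC4 libraries A, B and C had 1.52, 0.768 and 1.34 FPKM (mean 1.21 ± 0.392, SD, n = 3). IEC2 had 0.306, 0.397 and 0.611, IEC12 had 0.273, 0.361 and 0.308, and AOC had 0.0518, 0.116 and 0.0323. IEC4 lay above all other libraries and AOC below them, and IEC2 and IEC12 overlapped. The mean of IEC4 was 2.76 times that of IEC2, 3.85 times that of IEC12 and 18.1 times that of AOC. The AOC values were low and spread from 0.0323 to 0.116 FPKM, so ratios that rest on them are imprecise.

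NRP2 stayed under the filter, and its tests come from the fits with no filter. IEC12 was lower than IEC4 by 0.73 (difference -0.73, SE 0.15, limma adjusted p = 0.0101) and AOC was lower than IEC4 by 1.03 (difference -1.03, limma adjusted p = 8.88e-05), and both were called in all 6 fits with 1 library left out. The difference of IEC4 against IEC2, 0.61 (SE 0.15, limma adjusted p = 0.023), was called in 2 of 6 such fits and missed the threshold without IEC2 replicate A or B or IEC4 replicate A or C (limma adjusted p = 0.0761, 0.0704, 0.0564 and 0.0581). That of AOC against IEC2, -0.43 (limma adjusted p = 0.0215), was called in 3 of 6, and was lost without AOC replicate A or C or IEC2 replicate C (limma adjusted p = 0.062, 0.0691 and 0.0817). IEC12 against IEC2 and AOC against IEC12 were not called (-0.13 and -0.30, limma adjusted p = 0.624 and 0.0938).

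The neuropilins therefore stood in different proportion to each other. The ratio of NRP1 to NRP2 was 0.653 to 1.15 in IEC4, 1.04 to 2.78 in IEC2, 2.61 to 5.63 in IEC12 and 5.72 to 12.5 in AOC. IEC4 and IEC2 overlapped in this ratio, as did IEC2 and IEC12. AOC was above all IEC libraries, on low NRP2 values of 0.0323 to 0.116 FPKM.

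**Figure D3:**
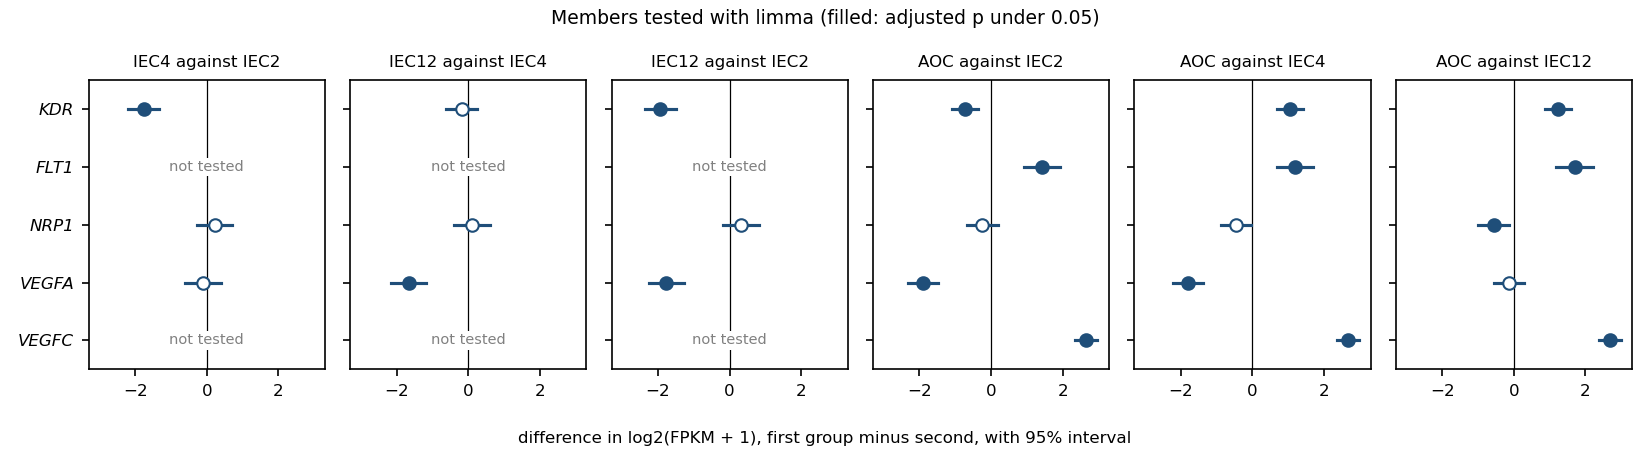
Difference in log2(FPKM + 1) of the 5 VEGF genes that passed the filter, first group minus second, with 95% intervals from limma. Filled points have an adjusted p under 0.05, FLT1 and VEGFC did not pass the filter of the 9-library fit, and KDR passes it through IEC2 alone. VEGFA lies at -1.66 for IEC12 against IEC4 and at -0.11, unfilled, for IEC4 against IEC2.

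VEGFA, the principal angiogenic ligand, was high at days 2 and 4 and low afterwards. The IEC2 libraries had 3.03, 4.24 and 4.30 FPKM (mean 3.86 ± 0.720, SD, n = 3) and IEC4 had 2.41, 4.65 and 3.66 (mean 3.57 ± 1.13). IEC12 had 0.324, 0.536 and 0.396, and AOC had 0.254, 0.237 and 0.346. IEC2 and IEC4 overlapped, IEC12 and AOC overlapped, and every library of the former pair lay above every library of the latter. Mitochondrial genes took 1.95 to 2.19% of the FPKM total in IEC2 and 4.28 to 7.1% in IEC4, where VEGFA was high, and 5.65 to 7.05% in AOC and 7.77 to 15.0% in IEC12, where it was low. The part of that share in VEGFA was not tested.

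VEGFA passed the filter of both fits through its IEC2 and IEC4 libraries, so its tests are given from the fits with no filter. It fell by 1.66 from IEC4 to IEC12 (SE 0.23, limma adjusted p = 0.00201), the mean of IEC4 being 8.53 times that of IEC12. The call held with each library left out in turn and under every pseudocount, filter, scaling and variance setting tried. IEC12 was lower than IEC2 by 1.77 (difference -1.77, limma adjusted p = 0.00117). AOC was lower than IEC2 and IEC4, with differences of -1.91 and -1.81 (limma adjusted p = 2.19e-05 and 3.42e-05) and ratios of mean levels of 13.8 and 12.8. Between IEC4 and IEC2 the difference was -0.11 (95% interval -0.63 to 0.42, limma adjusted p = 0.804), and it changed sign to 0.09 without IEC4 replicate A. Between AOC and IEC12 it was -0.15 (95% interval -0.58 to 0.29, limma adjusted p = 0.635).

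VEGFC, a ligand of the FLT4 and KDR proteins best known from lymphatic growth, was found in AOC. The AOC libraries A, B and C had 4.49, 5.38 and 6.88 FPKM (mean 5.58 ± 1.20, SD, n = 3). It was listed at 0 in 6 of the 9 IEC libraries, and the other 3 had 0.0785, 0.0495 and 0.0502, 1 in each IEC group. AOC did not overlap with any IEC group, and the IEC groups overlapped with each other. VEGFC passed the filter of the 12-library fit through AOC alone, so its tests come from the fit with no filter, where AOC exceeded IEC2 by 2.67, IEC4 by 2.68 and IEC12 by 2.68 (SE 0.12, limma adjusted p = 7.27e-08, 8.53e-08 and 7.92e-08), values that depend on the pseudocount because the IEC levels are near 0. The ratio of VEGFC to VEGFA in AOC was 17.7 to 22.7, in the same libraries where FLT4 was at most 0.0208 FPKM and KDR at least 1.31.

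VEGFD, the remaining ligand of the family and not among the 9 genes, was highest at day 4 like NRP2. It was at 1.70, 0.927 and 0.718 FPKM in IEC4, at 0.388, 0.303 and 0.188 in IEC2, at 0.136, 0.0946 and 0.122 in IEC12, and at 0.0204, 0 and 0.0395 in AOC. No neighbouring groups in that order overlapped. With no filter IEC4 exceeded IEC2 by 0.69 and IEC12 was below IEC4 by 0.89 (differences 0.69 and -0.89, limma adjusted p = 0.0184 and 0.00578).

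The ligand genes VEGFA, VEGFC and VEGFD summed to 4.77 to 7.26 FPKM in AOC and only 0.511 to 0.631 in IEC12, with 3.41 to 4.57 in IEC2 and 4.11 to 5.58 in IEC4. VEGFA made up 88.6 to 94.2% of that sum in IEC2, but 4.21 to 5.32% in AOC, and IEC4 lay at 58.6 to 83.4%. IEC2 thus had a ligand sum made chiefly of VEGFA beside a receptor sum made chiefly of KDR, AOC one made chiefly of VEGFC beside FLT1 and KDR, and IEC12 had the lowest sums of both.

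Counted over all 7 genes with no filter, 1 was called higher and 1 lower in IEC4 against IEC2, where 22.3% of all genes were called. For IEC12 against IEC4 it was 0 higher and 2 lower (background 26.1%), and for IEC12 against IEC2 0 higher and 2 lower (24.3%). For AOC the counts were 2 higher and 3 lower against IEC2 (background 41.1%), 3 higher and 2 lower against IEC4 (47.8%), and 3 higher and 1 lower against IEC12 (38.2%). The groups did not overlap for 2, 2 and 3 of the 7 genes in the IEC comparisons (38.4, 41.5 and 39.6% of all genes) and for 5, 6 and 5 in those of AOC (51.3, 56.0 and 50.8%). The comparisons share libraries, so these counts are not independent of each other. With the filter, 3 of the 7 genes were tested among the IEC groups and 5 in the comparisons with AOC, where 37.3, 44.2, 43.6, 63.8, 69.1 and 58.5% of all genes were called in the order above. The median difference over all genes tested was 0.20, -0.15, 0.03, -0.20, -0.45 and -0.21 in that order, and -0.01, 0.04, 0.02, -0.01, -0.02 and -0.01 after median-of-ratios scaling.

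Genes with known roles around the receptors were described from 4 lists. Of the 13 neuropilin partners, the class 3 semaphorins, their plexins and the adaptor GIPC1, all were found. Some of the listed genes reach the filter only through the group where they are high, so all counts and tests of the lists come from the fits with no filter. SEMA3A, a ligand of NRP1 that repels axons and vessels, fell from 13.8 ± 2.62 FPKM in IEC2 to 3.19 ± 1.94 in IEC4 (limma adjusted p = 0.00599) and was listed at 0 in all AOC libraries. PLXNA2, a plexin that pairs with neuropilins, rose from 0.547 ± 0.160 to 3.13 ± 0.894 between IEC2 and IEC4 and fell to 0.832 ± 0.199 in IEC12 (limma adjusted p = 0.0021 and 0.00464), and was highest in the group where NRP2 was. Of the 13, 1 rose and 1 fell from IEC2 to IEC4, where 15.4% of all genes rose and 6.95% fell. From IEC4 to IEC12, 0 rose and 2 fell, where 10.0% of all genes rose and 16.1% fell. Against IEC12, 4 were higher in AOC and 2 lower, where 15.2% of all genes were higher and 23.0% lower. The medians were 0.09, -0.10 and 0.04 in that order, beside 0.07, -0.04 and -0.03 over all genes. Called between AOC and IEC12 were PLXND1, the endothelial semaphorin receptor (2.18 ± 0.839 against 0.0947 ± 0.0452 FPKM), and SEMA3D (2.65 ± 0.179 against 11.5 ± 2.5), with limma adjusted p = 0.000182 and 9.4e-06.

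Of 30 signal transducers downstream of the receptors, 29 were found. From IEC2 to IEC4, 4 rose (15.4% of all genes did), 6 fell (6.95%) and 19 were not called, with a median difference of -0.01 beside 0.07 over all genes. PLA2G4A, a phospholipase, fell from 30.1 ± 2.16 to 8.29 ± 0.648 FPKM, and the kinase gene PRKCA from 5.11 ± 1.48 to 1.71 ± 0.366 (limma adjusted p = 0.000297 and 0.00716). From IEC4 to IEC12, 3 rose (10.0% of all genes) and 7 fell (16.1%), with a median of -0.13 beside -0.04. PXN, which encodes the focal adhesion protein paxillin, fell from 25.7 ± 1.69 to 2.37 ± 2.5 (limma adjusted p = 0.00516). AOC was higher than IEC12 in 11 of 29 (15.2% of all genes) and lower in 2 (23.0%), with a median of 0.37 beside -0.03. NOS3, the endothelial nitric oxide synthase gene, which is also an endothelial marker, was at 3.58 ± 0.573 in AOC and 0.311 ± 0.102 in IEC12 (limma adjusted p = 1.93e-06).

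Of 14 genes known to respond to VEGF in endothelium, 13 were found and 12 had a value above 0. From IEC2 to IEC4 1 rose and 3 fell, where 15.4% of all genes rose and 6.95% fell, and from IEC4 to IEC12 0 rose and 6 fell, where 10.0% rose and 16.1% fell. The list had medians of 0.16 and -1.08 beside 0.07 and -0.04 over all genes. ESM1, a proteoglycan gene of endothelial tip cells, was at 33.0 ± 4.64 FPKM in IEC2, 4.11 ± 1.07 in IEC4, 1.18 ± 1.47 in IEC12 and 179 ± 22.7 in AOC. EGR1, an immediate early transcription factor gene, was at 18.4 ± 2.69, 4.10 ± 1.10, 0.27 ± 0.192 and 0.294 ± 0.0926 in the same order. RCAN1, an inhibitor of calcineurin, was at 122 ± 31.1, 57.2 ± 5.27, 22.5 ± 0.518 and 99.9 ± 6.74. ESM1 and EGR1 fell at both steps (limma adjusted p = 0.0028 and 0.038 for ESM1, 0.000722 and 0.000763 for EGR1), and RCAN1 fell from IEC2 to IEC4 (limma adjusted p = 0.00413). RCAN1 was lower again in IEC12, at 21.9 to 22.95 FPKM against 52.3 to 62.8 in IEC4, without overlap. Its test for that step is not given here, and IEC12 against IEC2 was called (limma adjusted p = 9.02e-05). These 3 genes were highest among the IEC groups at day 2, before VEGF was added, as was KDR. ADAMTS1, NR4A1 and DLL4, the last near 0, also had their highest IEC mean in IEC2. The rest of the list did not. UNC5B, ANGPT2, PDGFB, PLAUR and DUSP5 had it in IEC4, after VEGF was added, and CXCR4 in IEC12. UNC5B was at 0.0176 ± 0.0175 FPKM in IEC2 and 1.24 ± 0.848 in IEC4. PLAUR fell from IEC4 to IEC12 (limma adjusted p = 0.0174), and PDGFB missed the threshold (limma adjusted p = 0.0501). Their IEC4 levels were uneven, at 7.39, 5.63 and 44.8 FPKM for PLAUR and 2.39, 5.14 and 17.8 for PDGFB, highest in replicate C as FLT1 was.

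AOC was higher than IEC12 in 8 of 12 response genes and lower in 0, where it was higher in 15.2% of all genes and lower in 23.0%, with a median of 1.57 beside -0.03. ANGPT2, which encodes angiopoietin-2, was at 32.5 ± 9.77 FPKM in AOC and 0.358 ± 0.0579 in IEC12, and the chemokine receptor gene CXCR4 at 63.5 ± 10.9 and 2.61 ± 0.811 (limma adjusted p = 1.31e-06 and 5.23e-07). Many of the listed genes are also general endothelial genes, and the marker sums given above moved with them. Their part in the counts was not tested.

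Of 8 regulators of VEGFA transcription in the hypoxia pathway, 6 were found. From IEC2 to IEC4, 4 rose and 0 fell, where 15.4% of all genes rose and 6.95% fell, and from IEC4 to IEC12, 1 rose and 4 fell, where 10.0% rose and 16.1% fell. The medians were 0.79 and -0.95 beside 0.07 and -0.04 over all genes. The list holds HIF genes and also genes that restrain HIF, so these counts and medians have no direction for VEGFA. The 4 that rose from IEC2 to IEC4 were of both kinds, EPAS1 and HIF1A beside HIF1AN and EGLN1. EGLN1 was the 1 that rose from IEC4 to IEC12 (means 2.3 and 4.2 FPKM). EPAS1, the HIF-2α gene, was at 9.30 ± 2.45 FPKM in IEC2, 22.4 ± 9.12 in IEC4, 0.0717 ± 0.0704 in IEC12 and 7.78 ± 3.03 in AOC. HIF1A was at 30.5 ± 1.70, 54.2 ± 7.12, 25.2 ± 2.38 and 119 ± 30.9, highest in AOC, where VEGFA was low and overlapped with IEC12. EGLN3, a prolyl hydroxylase gene that HIF itself induces, was at 214 ± 17.3, 274 ± 29.5, 49.8 ± 13.5 and 0.0126 ± 0.0218, highest in IEC2 and IEC4 as VEGFA was. From IEC4 to IEC12, EPAS1, EGLN3 and HIF1A all fell (limma adjusted p = 0.000153, 0.000226 and 0.000788).

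**Figure D4:**
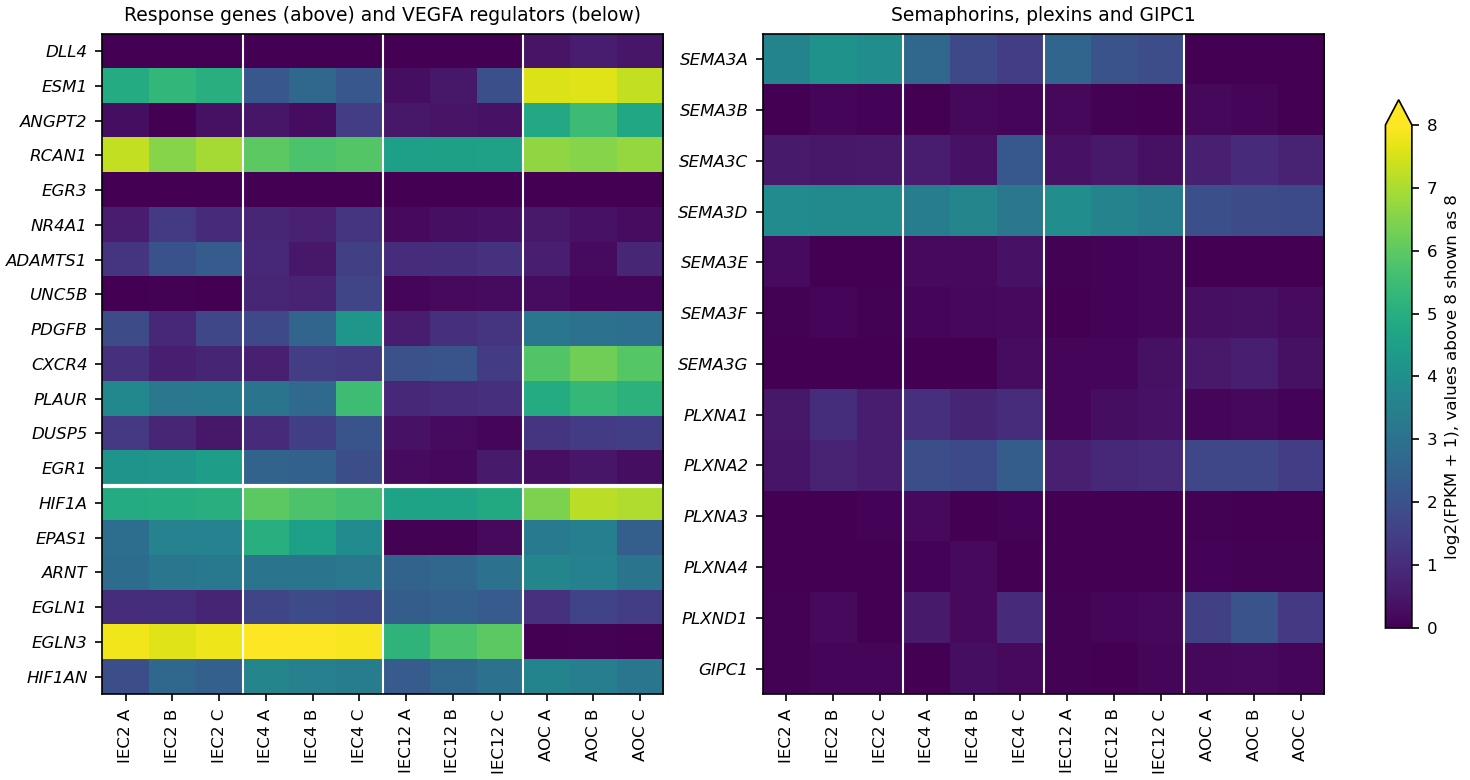
log2(FPKM + 1) per library of the VEGF response genes and hypoxia pathway regulators (left) and of the neuropilin partners (right), with dark colours for low and bright for high values and values above 8 drawn as 8. ESM1 and EGR1 are brightest among the IEC groups in IEC2, EPAS1 is dark in IEC12 (0.0717 FPKM), EGLN3 is dark in AOC, and SEMA3A is at 0 in AOC.

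For KDR, FLT1, NRP1 and VEGFC, the 3 genes with the closest pattern across the 12 libraries were named, closeness being the root mean square difference of log2(FPKM + 1) after each gene was centred on its own mean. Nearest to KDR were CDYL2, SAMD4A and CYRIA, at 0.26, 0.269 and 0.276 log2 units, and nearest to FLT1 were PARP8, USP53 and PPIC, at 0.208 to 0.210. For NRP1 they were UACA, SETD2 and GSK3B (0.141 to 0.157). For VEGFC they were FLRT2, PRKCH and SCG2 (0.0954 to 0.137), which were at 5.07, 5.27 and 6.55 FPKM in AOC and at most 0.0714 in the mean of any IEC group. With a pseudocount of 0.1, 0 of these genes were still among the nearest 3.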

How the data were processed

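RNA of 12 porcine cultures (AOC, IEC2, IEC4 and IEC12, replicates A to C, grouped by title) was amplified by Smart-Seq2 and sequenced. Reads were processed by the authors in Galaxy, and the deposited tables give each gene of a library 1 FPKM value. The submitters' processing notes name Bowtie2 2.2.3, TopHat2 2.0.12, Cufflinks 2.2.1 and the build susScr11. Read depth is unknown. Relative depth, from the steps of low values, was 0.895 to 1.23 in 11 libraries and not settled for IEC12 replicate A.

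limma 3.58.1 (R 4.3.3), tested on simulated data, was fitted to log2(FPKM + 1) of genes with at least 1 FPKM in at least 3 libraries, 10542 in the 9 IEC libraries and 11053 in all 12, with the variance tied to expression. The simulations planted changes only in genes that passed this filter and lay above a set mean level. They do not cover the fits with no filter or genes of low level. Calls needed a Benjamini-Hochberg adjusted p under 0.05. Alternatives were another pseudocount, no filter, the compared groups only, a replicate block, other scalings, an untied variance, the limits of the study and each library left out. Fits with no filter and 1 library left out, and list counts with no filter, were added after seeing the data.

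The genes and lists were chosen with earlier results of these data known. All VEGF genes found are reported, and from each list examples among the up to 4 called genes per comparison with the largest difference and no overlap. Symbols came from a table holding 13998 of 19681 identifiers, and positions from RefSeq. The genes nearest to VEGFA in pattern are not reported here.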

Additional observations from a re-analysis of the deposited data

How the results depend on the processing

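The number of VEGF genes called was 1, 1, 2, 4, 4 and 4 for IEC4 against IEC2, IEC12 against IEC4, IEC12 against IEC2 and AOC against IEC2, IEC4 and IEC12. KDR passes the filter among the IEC groups through IEC2 alone, and in the fits with AOC through IEC2 and AOC. VEGFA passes it through IEC2 and IEC4 alone, and VEGFC in the fits with AOC through AOC alone. These counts therefore carry no support. With no filter, where NRP2 was also tested, it was 2, 2, 2, 5, 5 and 4. Under the limits of the study, which include a log2 difference above 3, it was 0 in all 6. On the log2(FPKM + 1) scale no VEGF gene could have passed, since the highest value of any allows at most 2.98. With a pseudocount of 0.1 the largest possible difference is 6.12, so this 0 reflects the scale. The study set its limits for iPS cells against AOC, which is not compared here. With 1 library left out it was 0 to 1, 1, 1 to 2, 3 to 5, 3 to 4 and 2 to 4. It was 0 for IEC4 against IEC2, and 1 for IEC12 against IEC2, without any 1 of the IEC2 replicates, because KDR then failed the filter, and it was 2 for AOC against IEC12 without AOC replicate A or C. The direction reversed in VEGFA for IEC4 against IEC2 without IEC4 replicate A, with or without the filter (0.091, and -0.27 to 0.091 over the 6 libraries left out in turn), in FLT1 for IEC4 against IEC2 with no filter and without IEC4 replicate C (0.23 to -0.10), and in NRP1 for IEC12 against IEC4 with equal totals (-0.0084), none called. The cause was not tested. Of the differences of genes that passed the filter, under all alternatives, 442 kept direction and side of the threshold, 11 lost a call, 3 gained one and 3 reversed. Of 18 same-letter correlations, 2 were above 0.1 (range -0.514 to 0.246), both for IEC12 against IEC2 (0.246 in A and 0.201 in C). The 18 include those with AOC, a separate cell line. With 3 libraries per group they cannot settle whether the letters pair the IEC libraries. With the replicate block the counts stayed at 1, 1, 2, 4, 4 and 4. Values near or under 0.1 FPKM rest on few fragments, which limits FLT4 throughout, VEGFC in the IEC groups, KDR and FLT1 in IEC12 and NRP2 in AOC (0.0323 to 0.116).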
